A study of Mus musculus with 18 samples.

Results

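Among 18 lymphomas from mice lacking Atm, mTerc and p53 (Atm-/-, mTerc-/-, p53-/-), 7 were macrophage-low and 11 were macrophage-high. The members were selected on measured values of these arrays. For each lymphoma the log2 ratios of macrophage genes were averaged, and lymphomas with a mean below -1.2 formed the macrophage-low group. Of the 14 genes named for that mean, 12 were measured and used, namely Lyz2, Itgam, Cd14, Fcgr3, C1qa, C1qb, C1qc, Mrc1, Marco, Msr1, Ccr2 and Tyrobp, while Cd68 and Csf1r were not analysed here. Lymphomas 1, 2, 3, 5, 15, 17 and 18 made up the macrophage-low group, and lymphomas 4, 6 to 14 and 16 the macrophage-high group. The mice of both groups thus lacked a kinase of the DNA break response (Atm), the RNA component of telomerase (mTerc, or Terc) and the damage-responsive transcription factor p53. Total RNA was labelled for 2-colour Agilent arrays, with a dye swap for every lymphoma, and set against a common reference, thymus RNA of healthy mice aged 3 weeks and heterozygous for p53. The labels put all 18 lymphomas in 1 group and give neither the site of a tumour nor the sex or age of its mouse, and nothing says that each came from a separate mouse. They also do not say whether RNA came from tissue or from cultured cells, and p-values here measure only the spread between these samples. No thymus without lymphoma of the same genotype and no lymphoma of another genotype was analysed here, so the reference is the one background against which ratios can be read.

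Values below are log2 ratios of lymphoma over thymus RNA, so 0 is the thymus level. The direction was not stated with the values. Read this way, Atm and Terc lay below the thymus level in most lymphomas, which is only a weak check of the direction. The scale rests on the deposited values being log10 ratios, which was inferred. Every fold given depends on that inference. A fitted difference is the mean of the macrophage-low lymphomas minus that of the macrophage-high lymphomas, tested with limma and adjusted by Benjamini-Hochberg over 18135 genes. The 12 genes that chose the groups were kept out of the test.

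Macrophages are resident or recruited phagocytes that clear dead cells, secrete complement and chemokines, and carry scavenger and Fc receptors on their surface. In lymphoid tumours they lie in a stroma together with endothelium, fibroblasts, dendritic cells and other non-malignant cells. Sterol synthesis is a pathway of most dividing cells, which need cholesterol for new membranes. The transcription factor Srebf2 drives its genes when membrane sterols are low, Scap escorts Srebf2 out of the endoplasmic reticulum, and Insig1 retains both there when sterols are abundant. The nuclear receptor Nr1h3 (LXR alpha) responds to oxysterols and drives cholesterol efflux genes such as Abca1, Abcg1 and Apoe.

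The mean of the 12 genes that set the split lay between -2.95 and -2.0 in the macrophage-low lymphomas, against 0.01 to 2.49 in the macrophage-high lymphomas. Lymphoma 18 was nearest below the threshold with -2.0, and lymphoma 9 was nearest above it with 0.01, so a gap on both sides of -1.2 held no lymphoma. C1qa, which encodes a chain of the complement protein C1q made by tissue macrophages, was -4.72, -4.47, -4.62, -4.20, -4.34, -4.02 and -3.88 in macrophage-low lymphomas 1, 2, 3, 5, 15, 17 and 18. It was between 0.18 and 2.92, with a median of 0.47, in the 11 macrophage-high lymphomas. Lyz2, the lysozyme of myeloid cells, was -4.34 to -1.77 (median -3.92) in macrophage-low lymphomas and -0.76 to 1.53 (median 0.04) in macrophage-high lymphomas. The mannose receptor Mrc1 was -5.42 to -3.42 (median -4.30) in macrophage-low lymphomas, against -1.75 to 3.62 (median 0.54) in macrophage-high lymphomas. C1qa, Lyz2 and Mrc1 did not overlap between the groups, and in the macrophage-high lymphomas their medians sat close to the thymus level. Marco, a scavenger receptor, was spread most widely among the macrophage-high lymphomas, where it was -0.71 to 5.35 (median 1.79), against -2.95 to -1.2 (median -2.57) in macrophage-low lymphomas. Of the 12 genes, 9 did not overlap between the groups. The exceptions were Cd14, the monocyte chemokine receptor Ccr2 and Itgam. Itgam, an integrin chain of myeloid cells, was -1.17 to 1.24 (median 0.29) in macrophage-low lymphomas and -0.33 to 2.39 (median 0.44) in macrophage-high lymphomas, so this member separated the groups least. These genes defined the groups, and their values are a description with no test.

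**Figure D1:**
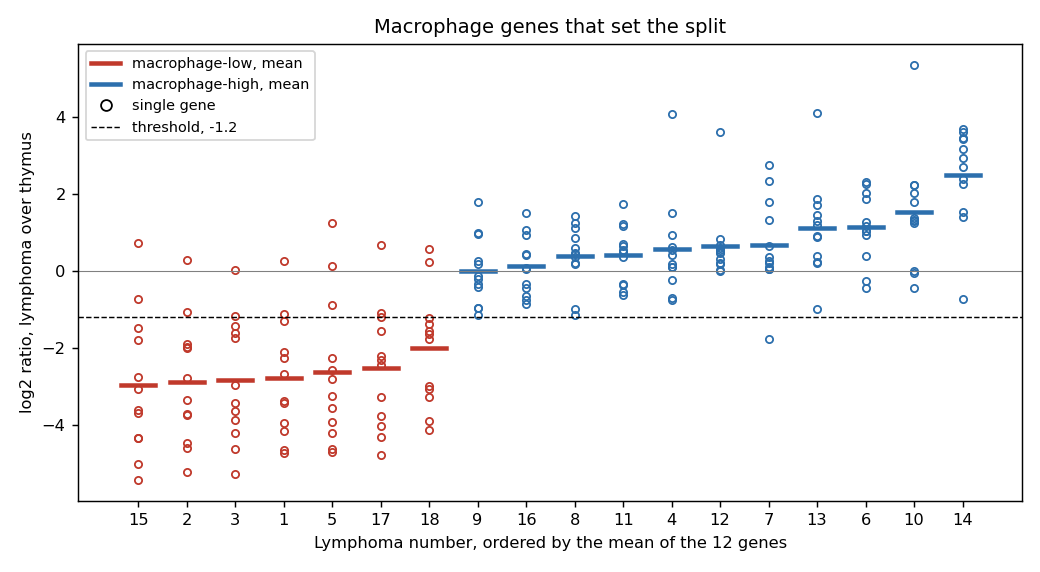
Log2 ratio (lymphoma over thymus, y axis) of the 12 genes that set the split in each lymphoma (x axis, by number, ordered by their mean), with a point per gene, a bar at the mean and a dashed line at -1.2. The means run from -2.95 to -2.0 in the 7 macrophage-low lymphomas, at the left, and from 0.01 to 2.49 in the 11 macrophage-high lymphomas.

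Of 18135 genes tested, 928 (5.12%) passed an adjusted p of 0.05, 211 higher (1.16%) and 717 lower (3.95%) in the macrophage-low lymphomas. At least 2-fold changes were fewer on the higher side, with 81 genes (0.447%), than on the lower side, with 677 genes (3.73%). Genes without overlap between the groups numbered 22 above (0.129%) and 234 below (1.38%) of 16989 genes with a value in every lymphoma. The groups were drawn from the same arrays, so genes of cells that carry the split's markers had to differ, and their counts lend no support to the split. The median difference over all genes was 0.04. Without lymphomas 2 and 5, left out in turn, the higher side fell to 134 and 127 genes. Ratios came from bulk RNA, in which fewer cells of a type and less RNA per cell cannot be told apart.

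The arrays had no value for 2.27% to 7.79% of probes, and array medians ran from -0.04 to 0.12. Lymphomas 7, 12 and 14, all macrophage-high, stood apart, with median correlations over genes of 0.10, 0.31 and 0.25 with the other arrays. Thymic epithelial genes averaged 0.21 in lymphoma 12 and -0.41 in lymphoma 7, near the thymus level, against -3.95 to -2.38 in all others. Without these 3 arrays 117 genes were higher and 647 lower. Terc was -2.06 to -0.68 (median -1.61) in macrophage-low lymphomas and -2.6 to -0.28 (median -1.53) in macrophage-high lymphomas. Atm was -0.71 to 0.56 (median -0.20) in macrophage-low lymphomas, against -1.76 to -0.53 (median -0.88) in macrophage-high lymphomas. Its difference of 0.71 ± 0.20 (SE; adjusted p = 0.0464) was lost under 16 of 32 alternatives, including 12 in which a single lymphoma was left out. Whether the probes of Atm and Terc lie in the deleted part is not stated in the labels, so they are a weak check of genotype. The 3 measured Y-linked genes (Eif2s3y, Kdm5d and Uty) averaged -0.19, 0.72 and -0.74 in macrophage-low lymphomas 2, 5 and 15 and -4.90 to -4.21 in the other 4. Their mean was -4.75 to -2.06 in macrophage-high lymphomas. With that mean as a covariate 141 genes were higher and 583 lower.

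Genes of cholesterol synthesis were higher in the macrophage-low lymphomas. Of 22 measured members of the list of cholesterol synthesis and uptake genes, 18 rose in the macrophage-low lymphomas and 0 fell, with a median difference of 1.41, beside 1.16% of all genes rising and a median of 0.04. The mean of the list was 0.98 to 2.02 (median 1.64) in macrophage-low lymphomas, against -0.14 to 0.45 (median 0.24) in macrophage-high lymphomas, with no overlap. Cholesterol genes made up 17 of the 81 genes that rose at least 2-fold (21.0%), 7 of the 22 genes wholly above (31.8%) and 7 of the 12 largest increases (58.3%). Among all 18135 genes tested the list has 22. It was chosen with earlier results of these data known, so these shares are a description and no independent support. The count of 18 held in each of the 18 fits that left out a single lymphoma, and without lymphomas 7, 12 and 14 together. The genes that mark the split differ between the groups by construction. Many macrophage, endothelial and matrix genes fell where the cholesterol genes rose, as given below. Their part in the result was not tested.

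The stretch of 250 bases before the gene start is shown for Hmgcs1, Cyp51 and Lss, which did not overlap between the groups, and for Ebp, a gene of the same pathway that did not pass. Sequences are from RefSeq (GRCm38.p6), 5′ to 3′ on the strand of the gene. Capitals mark CCAAT, the box bound by NF-Y, or its other strand ATTGG, and TCACNCCAC, a core of the sterol regulatory element. Hmgcs1 lies at chr13:119690101-119690350 (plus strand), Cyp51 at chr5:4104698-4104947 (minus strand), Lss at chr10:76531355-76531604 (plus strand) and Ebp at chrX:8193513-8193762 (minus strand).
Hmgcs1: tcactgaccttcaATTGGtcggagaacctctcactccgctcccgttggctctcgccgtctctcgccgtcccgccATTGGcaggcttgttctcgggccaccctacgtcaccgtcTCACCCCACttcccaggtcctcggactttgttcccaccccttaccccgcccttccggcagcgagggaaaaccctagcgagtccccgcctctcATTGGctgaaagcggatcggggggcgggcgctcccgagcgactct
Cyp51: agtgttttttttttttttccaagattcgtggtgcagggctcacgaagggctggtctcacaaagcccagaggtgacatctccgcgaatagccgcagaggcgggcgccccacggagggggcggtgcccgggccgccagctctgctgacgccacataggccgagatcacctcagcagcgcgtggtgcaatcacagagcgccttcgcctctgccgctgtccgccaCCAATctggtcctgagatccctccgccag
Lss: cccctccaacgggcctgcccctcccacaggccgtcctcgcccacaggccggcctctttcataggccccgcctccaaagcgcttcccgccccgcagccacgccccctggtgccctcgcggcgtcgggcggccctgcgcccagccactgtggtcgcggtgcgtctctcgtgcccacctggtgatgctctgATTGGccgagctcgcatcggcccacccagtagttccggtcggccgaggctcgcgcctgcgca
Ebp: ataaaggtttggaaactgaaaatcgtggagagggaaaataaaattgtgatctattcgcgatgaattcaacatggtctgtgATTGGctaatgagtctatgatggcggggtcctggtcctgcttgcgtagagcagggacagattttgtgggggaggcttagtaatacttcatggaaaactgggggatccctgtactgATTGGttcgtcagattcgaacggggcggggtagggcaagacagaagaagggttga
CCAAT was found on either strand in 17 of the 18 cholesterol genes with a promoter entry (94.4%), against 5739 of 14545 genes of the array (39.5%). Among these 18 it was present in all 14 that rose and in 3 of 4 that did not pass. TCACNCCAC was found only in Hmgcs1 (1 of 18, 5.56%), against 182 of 14545 genes of the array (1.25%). Ebp holds the CCAAT box at 2 places and did not pass, so the letters alone did not separate the genes that rose from those that did not. A match is a run of letters and not a site shown to be bound.

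Most of the early, mevalonate steps rose. Hmgcs1, which makes HMG-CoA, was 0.57 to 2.06 (median 1.79) in macrophage-low lymphomas, against -1.23 to 0.31 (median -0.65) in macrophage-high lymphomas. All 7 macrophage-low lymphomas lay above every macrophage-high one, and the difference was 2.11 ± 0.27 (SE, n = 7 and 11; 4.31-fold, adjusted p = 4.44e-05). In the macrophage-high lymphomas the median of Hmgcs1 was below the thymus level. Mvk, mevalonate kinase, rose by 1.03 ± 0.20 and was 1.29 to 2.40 in macrophage-low lymphomas, against -0.14 to 1.25 in macrophage-high lymphomas. Mvd, mevalonate decarboxylase, rose by 1.32 ± 0.26, with overlapping groups. Idi1, the isomerase that supplies both isoprenoid units, was 0.22 to 2.51 (median 1.43) in macrophage-low lymphomas and -1.53 to 1.25 (median -0.48) in macrophage-high lymphomas, a difference of 1.89 ± 0.39 (adjusted p = 0.00599). Fdps, farnesyl diphosphate synthase, was 0.57 to 2.40 (median 1.37) in macrophage-low lymphomas, against -0.60 to 0.04 (median -0.13) in macrophage-high lymphomas. The 11 macrophage-high lymphomas were tightly grouped for Fdps, with an SD of 0.18, and the 7 macrophage-low lymphomas spread more widely, with an SD of 0.65. Pmvk, the kinase between Mvk and Mvd, did not pass, with a difference of 0.67 ± 0.25 (adjusted p = 0.145).

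Most of the sterol-specific steps rose as well. Fdft1, squalene synthase, differed by 1.13 ± 0.22 as the mean of 2 probes, but by 0.12 (adjusted p = 0.872) on the probe with fewest missing values, so its probes disagree. Sqle, squalene epoxidase, was 1.79 to 3.03 (median 2.62) in macrophage-low lymphomas and -0.04 to 1.85 (median 0.77) in macrophage-high lymphomas, a difference of 1.80 ± 0.26 (adjusted p = 0.00019). Lss, which closes the ring to give lanosterol, was 1.94 to 3.76 (median 3.06) in macrophage-low lymphomas, against 0.07 to 1.48 (median 1.20) in macrophage-high lymphomas. Lss did not overlap between the groups and rose by 1.94 ± 0.27 (3.85-fold, adjusted p = 0.000133).

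Cyp51, the lanosterol demethylase, was 3.07, 3.53, 2.30, 2.29, 3.33, 3.17 and 1.86 in macrophage-low lymphomas 1, 2, 3, 5, 15, 17 and 18. In macrophage-high lymphomas it was 0.04 to 1.36, with a median of 0.64. The lowest macrophage-low value, in lymphoma 18, still exceeded the highest macrophage-high value, in lymphoma 8, and the difference was 2.18 ± 0.25 (4.52-fold, adjusted p = 1.07e-05). Cyp51 had the largest difference of the list. Of the later enzymes, Msmo1, the sterol C4-methyl oxidase, rose by 2.0 ± 0.27, and its partner Nsdhl by 1.49 ± 0.22. Hsd17b7, which reduces the 3-keto sterol, was 1.77 to 3.44 (median 3.06) in macrophage-low lymphomas and 0.06 to 2.01 (median 0.66) in macrophage-high lymphomas, and rose by 2.10 ± 0.29. Tm7sf2, a sterol reductase, rose by 1.65 ± 0.29, Sc5d, a desaturase, by 1.27 ± 0.25, and Dhcr7, the last reductase, by 1.32 ± 0.19. Of these, Nsdhl and Dhcr7 did not overlap between the groups. Ebp, the sterol isomerase that acts before Sc5d, was -0.54 to 0.18 (median -0.30) in macrophage-low lymphomas and -0.93 to 0.71 (median -0.19) in macrophage-high lymphomas, with an adjusted p of 0.869.

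Regulators of the pathway were divided. Srebf2 was 0.80 to 1.53 (median 1.23) in macrophage-low lymphomas, against -0.31 to 0.96 (median 0.11) in macrophage-high lymphomas, and rose by 0.92 ± 0.21 (1.90-fold, adjusted p = 0.0101). Insig1, itself a target of Srebf2, rose by 1.34 ± 0.30 (adjusted p = 0.00988), and the sterol carrier Stard4 by 1.60 ± 0.35. Scap was -0.07 to 0.58 in macrophage-low lymphomas and 0.00 to 0.83 in macrophage-high lymphomas, with a difference of -0.09 ± 0.15 (adjusted p = 0.80). Ggps1, which diverts the isoprenoid chain towards protein prenylation, differed by -0.05 ± 0.23 and did not pass. Pmvk, Scap, Ebp and Ggps1 were the 4 members of the list that did not pass.

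**Figure D2:**
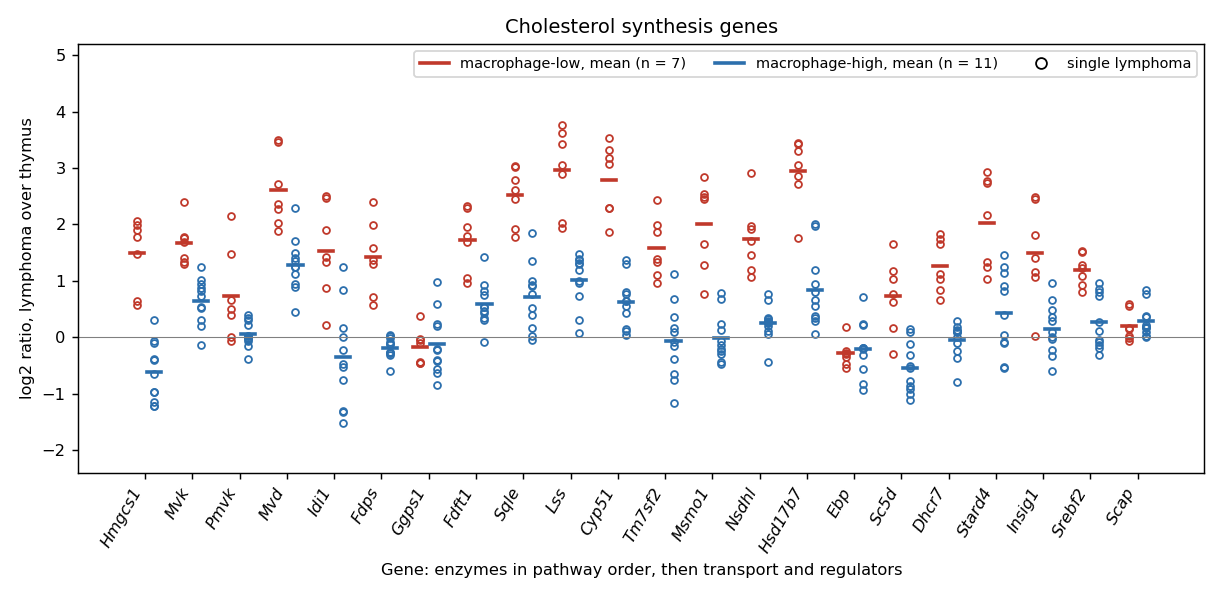
Log2 ratio (lymphoma over thymus, y axis) of the 22 cholesterol genes (x axis, enzymes in pathway order, then transport and regulators), with a point per lymphoma and a bar at the group mean, the macrophage-low lymphomas left of the macrophage-high lymphomas. Cyp51 lies at 1.86 or above in the 7 macrophage-low lymphomas and at 1.36 or below in the 11 macrophage-high lymphomas, while Ebp and Scap overlap.

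Among 13 fatty acid synthesis genes 4 rose and 0 fell, with a median difference of 0.59, beside 1.16% of all genes rising and a median of 0.04. Scd2, a stearoyl-CoA desaturase, was 0.88 to 2.17 (median 0.90) in macrophage-low lymphomas, against -1.09 to 0.33 (median -0.26) in macrophage-high lymphomas, and rose by 1.53 ± 0.25 (adjusted p = 0.000584) without overlap. The desaturases Fads1 and Fads2 rose by 1.01 ± 0.26 and 1.44 ± 0.40, and acetyl-CoA carboxylase, Acaca, by 0.54 ± 0.15. The calls on Fads1 (adjusted p = 0.0257), Fads2 (0.0396) and Acaca (0.0466) were lost under 2, 12 and 20 of 32 alternatives, and the count of 4 became 2 without any 1 of lymphomas 1, 2, 6, 10, 12 and 17. Fatty acid synthase, Fasn, was -0.96 to 0.27 in macrophage-low lymphomas and -1.78 to 0.11 in macrophage-high lymphomas, with an adjusted p of 0.488. Scd1, the desaturase of liver and fat, had a difference of -0.65 ± 0.42 (adjusted p = 0.442).

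Cholesterol efflux and LXR target genes ran the other way. Of 9 measured, 5 fell and 0 rose, with a median difference of -1.98, beside 3.95% of all genes falling. Abca1, the cholesterol efflux pump, was -8.02 to -3.41 (median -5.50) in macrophage-low lymphomas, against -1.68 to 1.05 (median -0.42) in macrophage-high lymphomas. Its groups did not overlap and the difference was -5.38 ± 0.52 (41.6-fold, adjusted p = 1.71e-06). Abcg1 fell by 2.01 ± 0.42 on the log2 scale with overlapping groups. Apoe, the lipoprotein that macrophages secrete to carry cholesterol, was -4.61 to -3.09 (median -4.34) in macrophage-low lymphomas and -0.84 to 1.74 (median 0.21) in macrophage-high lymphomas, and it belongs to the macrophage list too. Nr1h3 was -3.09 to -1.44 (median -1.80) in macrophage-low lymphomas, against -0.99 to 0.91 (median -0.07) in macrophage-high lymphomas, a difference of -1.98 ± 0.25. Pltp, phospholipid transfer protein, differed by -2.56 ± 0.35. Macrophages express each of the 5, and how far the macrophage genes of the next paragraph account for them was not tested.

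Most macrophage genes outside the 12 fell too, as the choice of the groups fixes. Of 28 measured, 23 fell and 0 rose, with a median difference of -2.68, and 16 did not overlap, beside 3.95% of all genes falling and 1.38% wholly below. Their mean was -3.16 to -1.91 (median -2.75) in macrophage-low lymphomas, against -0.43 to 1.75 (median 0.13) in macrophage-high lymphomas. Ms4a7, a membrane protein of tissue macrophages, was -5.18 to -4.26 in macrophage-low lymphomas and 0.16 to 3.30 in macrophage-high lymphomas. Cd5l, a secreted protein of splenic and hepatic macrophages, was -4.15 to -0.97 in macrophage-low lymphomas, against 0.19 to 5.16 in macrophage-high lymphomas. Mertk and Axl, receptors for dying cells, differed by -3.27 ± 0.33 and -3.90 ± 0.62. The Toll-like receptors Tlr4 and Tlr7 differed by -2.38 ± 0.43 and -2.71 ± 0.36, both without overlap. Aif1 differed by -4.11 ± 0.30, the Fc receptor chain Fcer1g by -3.83 ± 0.41 and the pore protein Mpeg1 by -1.89 ± 0.25. Adgre1, which encodes F4/80, differed by -3.03 ± 0.46, a call lost on the probe with fewest missing values (adjusted p = 0.19). Cd163, the haemoglobin scavenger receptor, differed by -1.99 ± 0.52 (adjusted p = 0.0281), lost under 8 of 32 alternatives, among them those without lymphoma 1, 2, 5, 17 or 18. Spi1, which encodes the myeloid factor PU.1, was -0.84 to -0.03 (median -0.32) in macrophage-low lymphomas and -0.43 to 1.35 (median -0.10) in macrophage-high lymphomas, with an adjusted p of 0.264, and passed under 1 of 32 alternatives, the continuous covariate. Gpnmb, a lysosomal glycoprotein of lipid-laden macrophages, did not pass (adjusted p = 0.0512), but passed under 8 of 32 alternatives, among them those without lymphoma 2, 12 or 18.

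**Figure D3:**
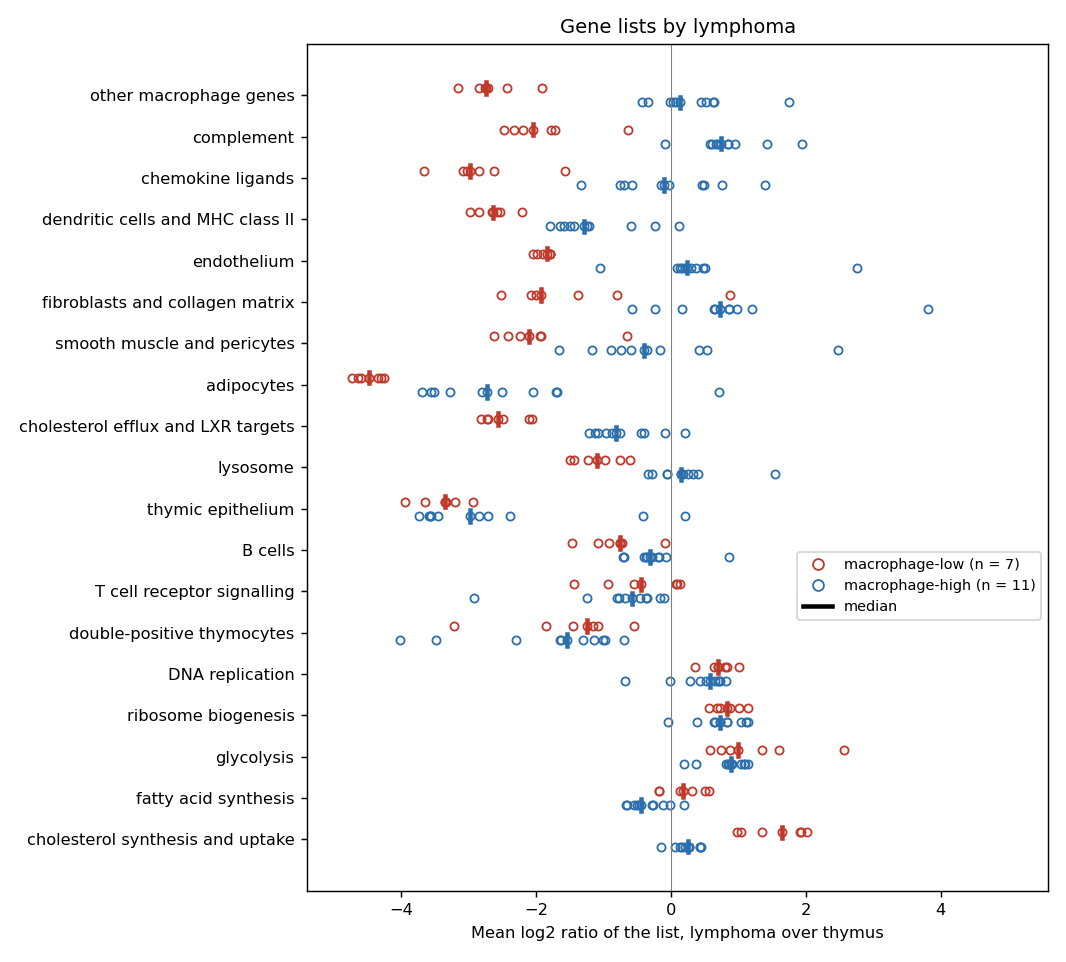
Mean log2 ratio (lymphoma over thymus) of each gene list, with 1 point per lymphoma and a bar at the group median, the macrophage-low lymphomas above the macrophage-high lymphomas in each row. The cholesterol synthesis list is at 0.98 to 2.02 in the macrophage-low lymphomas, against -0.14 to 0.45 in the macrophage-high lymphomas, and the fibroblast list has 1 macrophage-low point at 0.87, lymphoma 15.

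Complement genes other than C1q fell in 8 of 10 cases, and 0 rose (median difference -2.78), beside 3.95% of all genes falling. C4b was -2.6 to -1.25 (median -2.20) in macrophage-low lymphomas, against 1.19 to 3.37 (median 2.35) in macrophage-high lymphomas. That gene was thus below the thymus level in every macrophage-low lymphoma and above it in every macrophage-high one. Properdin, Cfp, which steadies the convertase of the alternative pathway, was -2.38 to -1.75 in macrophage-low lymphomas and 0.01 to 1.57 in macrophage-high lymphomas, and the SD within the macrophage-low group was 0.22. Factor B, Cfb, differed by -3.98 ± 0.35 and the C1 inhibitor Serping1 by -4.15 ± 0.40. C1s1, a protease of the C1 complex, differed by -2.67 ± 0.48, with overlapping groups.

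Chemokine ligands fell in 11 of 19 cases and rose in 0 (median difference -2.54), beside 3.95% of all genes falling. Ccl8, a ligand that attracts monocytes and T cells, had the largest fall of all genes. It was -3.64, -3.83, -4.03, -3.82, -3.68, -3.40 and -4.35 in macrophage-low lymphomas 1, 2, 3, 5, 15, 17 and 18. It ranged from 0.28 to 5.67, with a median of 3.41, in macrophage-high lymphomas, and the difference was -7.26 ± 0.68 (153-fold, adjusted p = 1.15e-06). Signal over background was not used here, so low ratios such as these may be bounds. Ccl12, another monocyte attractant, was -4.53 to -2.23 in macrophage-low lymphomas and -0.61 to 3.91 in macrophage-high lymphomas. Cxcl16, the ligand of Cxcr6, differed by -3.31 ± 0.31, and Cxcl13, which recruits B cells to follicles, by -4.92 ± 0.75. Cxcl9, induced by interferon gamma, differed by -2.58 ± 0.69 (adjusted p = 0.0313), which was lost under 10 of 32 alternatives, among them those without lymphoma 1, 2, 5, 12, 17 or 18. Among 15 inflammatory cytokines and NF-kB targets 3 fell, Vcam1, Il18 and Il1b. Vcam1, an adhesion molecule, was -4.66 to -1.61 in macrophage-low lymphomas, against -1.15 to 0.23 in macrophage-high lymphomas. Il1b differed by -2.11 ± 0.51, and Tnf did not pass, with a difference of 0.34 ± 0.34.

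Dendritic cell and MHC class II genes fell in 8 of 17 cases and rose in 0 (median difference -1.24), beside 3.95% of all genes falling. H2-Aa, a class II chain, was -5.13 to -4.41 (median -4.96) in macrophage-low lymphomas, against -3.27 to 0.06 (median -2.74) in macrophage-high lymphomas. Both groups were thus below the thymus level at the median, the macrophage-low lymphomas further. H2-Eb1 differed by -2.99 ± 0.50 and the invariant chain Cd74 by -2.37 ± 0.53. Clec10a, a lectin of macrophages and dendritic cells, differed by -5.53 ± 0.43, and Batf3, a factor of cross-presenting dendritic cells, by -1.41 ± 0.29. With quantile normalization 3 of the 17 genes passed, and the calls on H2-Aa, Cd74 and Batf3 were lost.

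Lists of other blood cells are set beside the 3.95% of all genes that fell, and several counts lay near that share. Of 14 neutrophil genes 3 fell, S100a8, S100a9 and Csf3r, by 3.19 ± 0.80, 3.10 ± 0.76 and 2.78 ± 0.38 on the log2 scale, and without lymphoma 5 the call on S100a8 was lost. Of 7 erythroid genes 2 fell, the haemoglobin chain Hba-a1 (-2.53 ± 0.51) and the haem enzyme Alas2 (-1.99 ± 0.39). Of 7 megakaryocyte and platelet genes 2 fell, Pf4 and Ppbp. Pf4, a chemokine of platelets that macrophages also make, was -7.55 to -2.11 in macrophage-low lymphomas and 0.79 to 4.78 in macrophage-high lymphomas. Ppbp differed by -2.59 ± 0.72 (adjusted p = 0.0398), lost under 12 of 32 alternatives, 10 of which left out a single lymphoma. In the B cell list 1 of 11 genes fell, the receptor chain Cd79b (-2.39 ± 0.63), lost without lymphoma 1, 3, 5 or 17. Pax5, the factor that defines B cells, did not pass (0.14 ± 0.17). In the NK and cytotoxic list 1 of 12 fell, Klrd1 (-2.27 ± 0.63, adjusted p = 0.041), lost under 14 of 32 alternatives, 11 of which left out a single lymphoma. In limma, 0 of 7 mast cell, 0 of 8 plasma cell and 0 of 9 hepatocyte genes passed, and 1, 3 and 1 had an unadjusted p under 0.05. Over all genes 3267 of 18135 had such a p.

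Endothelial genes fell in 13 of 18 cases, and 0 rose (median difference -2.58), beside 3.95% of all genes falling. The list mean lay in a narrow band, -2.05 to -1.80, in all 7 macrophage-low lymphomas, against -1.06 to 2.76 (median 0.24) in macrophage-high lymphomas. Without signal over background, whether low ratios in that band are bounds was not tested. Emcn, endomucin of capillaries and veins, was -4.61 to -3.63 (median -3.92) in macrophage-low lymphomas and -2.42 to 4.01 (median 0.25) in macrophage-high lymphomas. Cdh5, the cadherin of endothelial junctions, was -3.12 to -1.44 (median -2.04) in macrophage-low lymphomas, against -1.27 to 3.74 (median 0.33) in macrophage-high lymphomas. Robo4 differed by -3.80 ± 0.51, the tight junction gene Cldn5 by -3.24 ± 0.48 and Lyve1, of lymphatic vessels and some macrophages, by -3.20 ± 0.54, each without overlap. The VEGF receptor Kdr differed by -2.61 ± 0.44, von Willebrand factor, Vwf, by -2.53 ± 0.36 and Plvap by -1.91 ± 0.43, with overlapping groups. Pecam1, which haematopoietic cells express as well, was -0.72 to 0.81 (median -0.03) in macrophage-low lymphomas and -0.38 to 1.02 (median 0.06) in macrophage-high lymphomas and did not pass (adjusted p = 0.847).

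Fibroblast and matrix genes fell in 11 of 21 cases and rose in 0 (median difference -2.06), beside 3.95% of all genes falling, but the macrophage-low lymphomas were not alike. Lum, a proteoglycan of collagen matrix, was -6.55 to -4.52 (median -5.59) in macrophage-low lymphomas, against -3.88 to 4.08 (median -0.19) in macrophage-high lymphomas. Dpt, dermatopontin, was -3.04 to -2.08 in macrophage-low lymphomas and -1.57 to 1.61 in macrophage-high lymphomas. Lum and Dpt did not overlap between the groups. Col1a2, a chain of type I collagen, was -4.25, -1.98, -0.20, -3.89, 2.85, -3.97 and -2.17 in macrophage-low lymphomas 1, 2, 3, 5, 15, 17 and 18, against -0.50 to 4.89 (median 2.21) in macrophage-high lymphomas. Lymphoma 15 thus lay above the median of the macrophage-high lymphomas. Col1a1 did not pass, with a difference of -1.95 ± 0.68 (adjusted p = 0.114), and passed without lymphoma 15 (-2.48, adjusted p = 0.0219). Dcn differed by -3.79 ± 0.59, Sparc by -3.87 ± 0.75 and Col3a1 by -3.17 ± 0.60. Pdgfrb, a receptor of fibroblasts and pericytes, was 1.14 to 4.56 (median 3.36) in macrophage-low lymphomas and 1.16 to 4.68 (median 3.05) in macrophage-high lymphomas, above the thymus level in all 18 (adjusted p = 0.982). Fbln1 and fibronectin, Fn1, did not pass either, with differences of -0.11 ± 0.53 and -0.87 ± 0.53. As to the label stroma-poor, the choice of the groups fixes the low macrophage genes, so they are no check of it. The endothelial and adipocyte list means lay below those of every macrophage-high lymphoma in all 7 macrophage-low lymphomas. The matrix and the smooth muscle list means did in 6 of the 7, all but lymphoma 15. The dendritic cell mean did in all 7, but its list shares genes such as Clec10a with macrophages. The skeletal muscle and thymic epithelial means overlapped between the groups beyond lymphoma 15, so the label holds for part of the stromal lists.

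Other stromal lists are likewise set beside the 3.95% of all genes that fell. Of 10 smooth muscle and pericyte genes 4 fell, among them Rgs5, a pericyte gene (-2.67 ± 0.51), while Acta2 did not pass (-1.07 ± 0.37, adjusted p = 0.112) and passed without lymphoma 15. Of 9 adipocyte genes 5 fell, among them adiponectin, Adipoq, which was -5.71 to -4.92 in macrophage-low lymphomas and -3.92 to 0.74 in macrophage-high lymphomas. Fabp4, a lipid carrier of adipocytes, macrophages and endothelium, differed by -2.76 ± 0.67. With quantile normalization 1 of the 9 passed. In the skeletal muscle list 1 of 10 genes fell, Tnni2 (-2.66 ± 0.76, adjusted p = 0.0488), lost under 17 of 32 alternatives, 13 of which left out a single lymphoma. Of 15 thymic epithelial genes 0 passed in limma, and 2 had an unadjusted p under 0.05, beside 3267 of all 18135 genes. Krt8 was -6.00 to -5.01 (median -5.59) in macrophage-low lymphomas and -5.55 to 1.11 (median -5.09) in macrophage-high lymphomas, with the highest values in lymphomas 12 and 7.

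Genes of macrophage function moved in part. Of 16 lysosomal genes 7 fell and 0 rose (median difference -0.88), and 4 fell without lymphoma 2, beside 3.95% of all genes falling. Cathepsin H, Ctsh, was -6.89 to -3.17 in macrophage-low lymphomas, against -0.76 to 1.76 in macrophage-high lymphomas. The protease legumain, Lgmn, differed by -3.79 ± 0.57 and cathepsin D, Ctsd, by -1.2 ± 0.24. Of 10 haem and iron genes 2 fell. Spic, a transcription factor of red pulp macrophages, was -5.05 to -3.44 in macrophage-low lymphomas and -2.33 to 1.11 in macrophage-high lymphomas. Slc40a1, the iron exporter ferroportin, differed by -3.79 ± 0.68. Haem oxygenase, Hmox1, was -0.39 to 3.17 (median 0.32) in macrophage-low lymphomas and 0.28 to 2.6 (median 1.49) in macrophage-high lymphomas and did not pass (adjusted p = 0.258), but passed without lymphoma 15 (-1.29, adjusted p = 0.0157).

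Counts among T-lineage genes were near the share of all genes that passed (5.12%). In limma, 0 of 15 T cell receptor signalling genes and 0 of 16 genes of double-positive thymocytes did, and 2 and 0 had an unadjusted p under 0.05. Over all genes 3267 of 18135 had such a p. Cd3e was -0.27 to 1.28 (median 0.68) in macrophage-low lymphomas and -1.90 to 1.08 (median 0.21) in macrophage-high lymphomas, a difference of 0.67 ± 0.34 (adjusted p = 0.305). The lowest Cd3e, -1.90, and the lowest Cd3g, -4.99, were both in macrophage-high lymphoma 14. Zap70, the kinase of the receptor, differed by 0.54 ± 0.43, Cd4 by 0.14 ± 0.31, Cd8a by 0.31 ± 0.62 and the recombinase gene Rag1 by 0.62 ± 0.48, and none passed. Of 14 mature T cell genes 1 fell, S1pr1 (-1.87 ± 0.43), the receptor that lets T cells leave lymphoid organs. Median differences were 0.38 for receptor signalling genes and 0.26 for double-positive thymocyte genes.

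Of 11 Notch targets 1 rose, Il2ra, the alpha chain of the interleukin 2 receptor, beside 1.16% of all genes rising. In limma, 5 of the 11 had an unadjusted p under 0.05, above the share of 3267 among all 18135 genes. Il2ra was 0.43, 2.88, 5.56, 2.26, 2.34, 3.22 and 2.28 in macrophage-low lymphomas 1, 2, 3, 5, 15, 17 and 18, against -2.11 to 2.12 (median -0.78) in macrophage-high lymphomas. Its difference of 3.17 ± 0.64 (8.99-fold, adjusted p = 0.00468) was the largest on the higher side, although lymphoma 1 lay inside the range of the macrophage-high lymphomas. Hes1, a direct Notch target, was 2.02 to 3.62 (median 3.26) in macrophage-low lymphomas and -1.45 to 3.3 (median 1.65) in macrophage-high lymphomas. It did not pass (1.86 ± 0.56, adjusted p = 0.0629) but did without lymphoma 11 or 16. Notch1 itself was 3.28 to 6.28 (median 4.73) in macrophage-low lymphomas, against -1.84 to 4.80 (median 3.84) in macrophage-high lymphomas, and did not pass (adjusted p = 0.187). Notch3 differed by 0.55 ± 0.50.

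In the lists of growth, metabolism and stress genes the counts that passed were near the shares over all genes (1.16% higher, 3.95% lower). Of 26 DNA replication genes 1 rose, Cdc45, a helicase subunit (1.03 ± 0.26, adjusted p = 0.0207), which was lost without lymphoma 3 or 5. Of 19 mitosis genes 1 rose, the kinetochore motor Cenpe (0.98 ± 0.25, adjusted p = 0.0221), lost without lymphoma 2, 3 or 17. The helicase gene Mcm2 was 0.57 to 1.59 in macrophage-low lymphomas and -0.36 to 1.47 in macrophage-high lymphomas (adjusted p = 0.469). In limma, 0 of 15 ribosome biogenesis, 0 of 15 respiratory chain, 0 of 13 glycolysis and 0 of 13 serine and one-carbon genes passed, with 1, 1, 1 and 2 at an unadjusted p under 0.05. Of 14 genes of the Atf4 and amino acid response 0 passed and 7 had an unadjusted p under 0.05. Over all genes 3267 of 18135 had such a p in limma, so the Atf4 list lay above that share. Ldha, lactate dehydrogenase, differed by 0.32 ± 0.23, Phgdh, the first enzyme of serine synthesis, by 0.32 ± 0.23 and asparagine synthetase, Asns, by 1.63 ± 0.60. Of 13 hypoxia genes 1 rose, the oxygen sensor Egln1 (1.17 ± 0.26, adjusted p = 0.00861). Of 18 interferon response genes 0 passed and 4 had an unadjusted p under 0.05. Of 15 immediate early genes 1 fell, Nr4a1 (-1.77 ± 0.47), lost under 11 of 32 alternatives, 7 of which left out a single lymphoma. Of 21 p53 target genes 1 fell, Pmaip1, which encodes the cell death protein Noxa. Pmaip1 was -8.51 to -2.35 (median -5.43) in macrophage-low lymphomas, against -3.40 to 2.05 (median -1.47) in macrophage-high lymphomas, a difference of -4.55 ± 0.86 (adjusted p = 0.00249). Cdkn1a, the cell cycle inhibitor, did not pass (0.52 ± 0.57).

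The largest increases outside the pathways above were in Tmem45a, Qsox2, Gch1 and Sgip1. Gch1, the first enzyme of tetrahydrobiopterin synthesis, was 0.31 to 2.96 (median 1.51) in macrophage-low lymphomas and -1.5 to 0.57 (median 0.15) in macrophage-high lymphomas, a difference of 1.74 ± 0.38 (adjusted p = 0.00839). Tmem45a, a membrane protein, differed by 2.21 ± 0.63 (adjusted p = 0.0454), Qsox2, a sulfhydryl oxidase, by 1.93 ± 0.50 (adjusted p = 0.0286) and Sgip1, an endocytic adaptor, by 1.74 ± 0.49 (adjusted p = 0.0441). The call on Tmem45a was lost under 17 of 32 alternatives, that on Qsox2 under 7 and that on Sgip1 under 18. Leaving out a single lymphoma sufficed in 12, 3 and 13 of these.

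The largest decreases were all in the range of -7.26 to -5.62. Values of Ccl8, Pf4, Ms4a7, Cd5l and Ctsh are given above. Clec7a encodes the beta-glucan receptor dectin-1 and was -7.68 to -2.28 in macrophage-low lymphomas, against -1.10 to 1.81 in macrophage-high lymphomas. Sparcl1, a matrix protein of vessels, was -8.22 to -5.61 (median -7.85) in macrophage-low lymphomas and -3.68 to 2.65 (median -0.68) in macrophage-high lymphomas. Selenop, the selenium carrier, was -7.92 to -3.44 in macrophage-low lymphomas, against -1.72 to 0.67 in macrophage-high lymphomas. Wfdc17 (-5.99 ± 0.40), cathepsin S, Ctss (-5.69 ± 0.74), and the lectin Clec4b1 (-5.64 ± 0.50) did not overlap between the groups either. Mgp, matrix Gla protein, fell by 5.62 ± 0.58 on the log2 scale and was the exception among the 12, since lymphoma 15 (-1.60) reached into the range of the macrophage-high lymphomas.

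**Figure D4:**
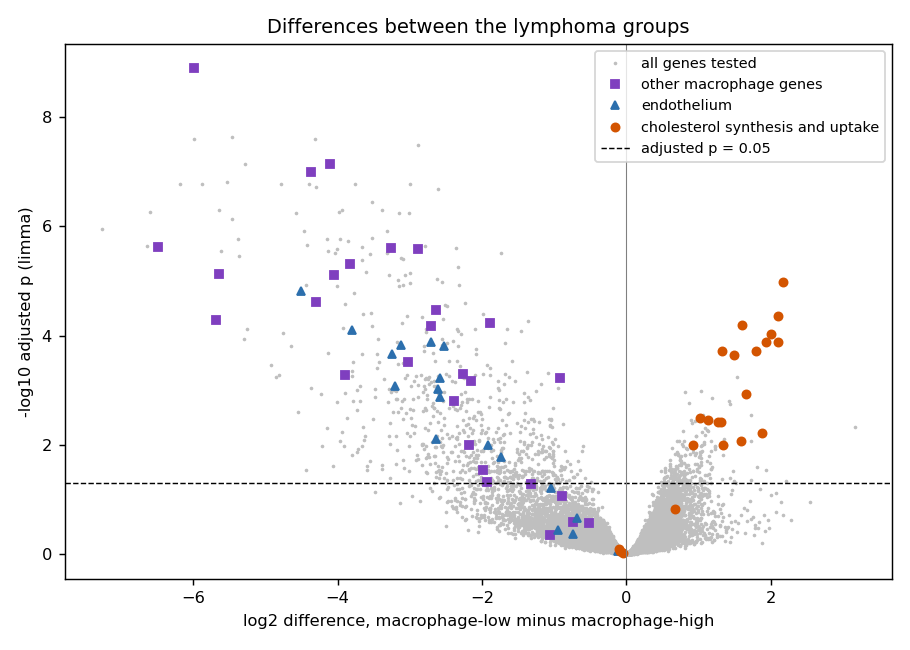
Log2 difference (macrophage-low minus macrophage-high lymphomas, x axis) against -log10 of the limma adjusted p (y axis), with a point per tested gene and a dashed line at an adjusted p of 0.05. The 18 cholesterol genes above the line lie right of 0, up to 2.18 (Cyp51), while the macrophage and endothelial genes above it lie left of 0.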

How the data were processed

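Each of the 18 lymphomas has 1 deposited column of log10 ratios against thymus RNA, made by the authors from 2-colour arrays with a dye swap, per the labels. Details of feature extraction, normalization, centring and swap handling are not given by the labels or by the table's header. Base 10 and the direction are inferred. Values were multiplied to the log2 scale. Of 41175 probes, 31700 carry 1 gene symbol, 47 several and 9428 none, and 31564 were matched to a RefSeq table (GRCm38.p6) that changed 0 symbols. A gene is the mean of its probes with values on at least 14 arrays, which gave 18147 genes, 17001 of them complete and 7702 with more than 1 probe. No value column was left unused (0).

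Groups were compared with limma 3.58.1 in R 4.3.3 (lmFit and eBayes), with Benjamini-Hochberg adjustment and a threshold of 0.05. The fit was also run on simulated data, with independent, normally distributed genes of equal spread in both groups. Those data lack correlated genes and a split drawn from the values, so they cannot give the error rate of this comparison. Errors on differences are SE. Alternatives covered between-array normalization, missing values, probes per gene, array weights, the grouping, Y-linked ratios as a covariate, and single lymphomas. The 7694 probes without a gene symbol were fitted apart, and 90 passed, 24 higher and 66 lower. Precision is limited by the array count, and signal over background and scan or slide batches were not used here.

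The members and the gene lists were chosen with earlier results of these data known. Named genes were the 12 largest increases and 12 largest decreases among complete genes that passed, members of lists that are described, the genes that set the split, and the targeted and Y-linked genes. Lymphoma numbers are those of the labels.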

Additional observations from a re-analysis of the deposited data

Results flagged for a closer look

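Within the 7 macrophage-low lymphomas, 189 values (named genes outside the 12 that set the split, and list means) were examined for a single lymphoma far from the other 6 by Dixon's test at 95%, and 26 met it, 22 genes and 4 list means. Chance gives about 1 in 20 for a value taken alone. The values are not independent, because list means average many of the same genes, so the count of 26 cannot be judged against that rate. Of the 26, 14 were in lymphoma 15, 6 in lymphoma 3, 3 in lymphoma 18, 2 in lymphoma 5 and 1 in lymphoma 1. Values are log2 ratios of lymphoma over thymus.

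Lymphoma 15 stood above the others in matrix, complement and vessel-wall genes. Col3a1 was 0.61 there, against -3.52 to -2.04 in the other 6, and Acta2 was 0.25, against -1.59 to -1.08. Mgp was -1.60, against -6.13 to -5.28, and Vcam1 was -1.61, against -4.66 to -3.47. The complement genes C1s1 (0.32, against -3.91 to -2.70) and Serping1 (-0.26, against -2.99 to -2.12) lay above as well, and so did Cxcl16 (-2.48), Hmox1 (3.17), Fads1 (2.79) and Ebp (0.18). Mcm2 was lower in lymphoma 15, at 0.57, against 1.21 to 1.59. Its list means were -0.66 for smooth muscle and pericytes, -0.64 for complement and -0.33 for inflammatory cytokines and NF-kB targets, each above those of the other 6.

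Lymphoma 18, which the rule placed nearest the threshold, was highest in Clec7a and Fcer1g, macrophage genes that the rule did not use. Clec7a was -2.28 there, against -7.68 to -5.42 in the other 6, and Fcer1g was -1.40, against -3.05 to -2.57. Hsd17b7, by contrast, was lowest in lymphoma 18, at 1.77, against 2.72 to 3.44.

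Lymphoma 3 had the highest Cd163 (-1.23), Ccl12 (-2.23), Slc40a1 (-0.73) and Fabp4 (-0.089), the lowest Adipoq (-5.71), and an interferon response mean of 1.06, against -1.66 to -0.52 in the other 6. Lymphoma 5 had the lowest Cxcl13 (-5.94) and Lyve1 (-4.38). Hba-a1 was highest in lymphoma 1, at -3.22.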

How the results depend on the processing

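Of 148 named genes tested, 106 passed, and 76 of these passed under each of the 32 alternatives, while 35 of the 42 that did not pass did so under none. Over genes and alternatives, 204 calls were lost, 20 were gained and 0 changed direction. The split at -1.0, at -1.5 or on Lyz2 and C1qa alone (the alternative named Csf1r too, not analysed here) gave the same groups and counts. These splits are counted among the 32 but could change no call. Quantile normalization gave 614 genes in all (928 as reported), 469 lower (717), 414 at least 2-fold lower (677), and 3 dendritic cell (8) and 1 adipocyte genes (5). It also ended the calls on Abcg1, Alas2, Fabp4, Hba-a1, Il1b, S100a8, S100a9 and S1pr1. Scaling arrays to one median absolute deviation gave 138 higher (211), 47 at least 2-fold higher (81), 5 dendritic cell and 1 fatty acid gene (4). The mean of the split's genes as a continuous covariate gave 1545 genes, 486 of them higher. The probe with the largest SD gave 141 at least 2-fold higher. The Y-linked covariate left 4 lysosomal genes (7). Without lymphomas 7, 12 and 14 together, 117 genes were higher, 44 at least 2-fold, and 2 fatty acid genes passed. The causes were not tested. Leaving out single lymphomas gave 673 to 1140 genes, 127 to 309 higher (134 without lymphoma 2, 127 without 5) and 546 to 831 lower. Fatty acid genes then numbered 2 to 5 and lysosomal genes 4 to 9 (4 without lymphoma 2), while the cholesterol count stayed at 18. Across all alternatives that count was 18, except 17 on the probe with fewest missing values (Fdft1). No paired analysis was possible because the labels put all lymphomas in 1 group and their numbers pair nothing. Signal over background was not used here, so how far low ratios are bounds is not known.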

Other observations

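Lymphoma 15 had the highest mean of the hypoxia list, 2.67 on the log2 scale, against -0.62 to 0.97 in the other 6 macrophage-low lymphomas and -0.06 to 0.66 in the macrophage-high lymphomas. In lymphoma 15 the glucose transporter gene Slc2a1 was 4.09, Ndrg1 4.31, Ankrd37 3.65 and the vessel growth factor gene Vegfa 3.15. Each of these 4 genes, taken alone, did not pass between the groups. The glycolysis mean was also highest in lymphoma 15, at 2.56, against 0.19 to 1.60 in all the others. Its cholesterol synthesis mean, 2.02, was the highest of the 18 as well.

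Interferon response genes were above the thymus level in macrophage-low lymphoma 3 (1.06) and in macrophage-high lymphomas 7 (0.46), 12 (0.37) and 14 (0.84), and below it in the other 14. Isg15 was 1.41 in lymphoma 3 and between -2.64 and 0.19 in the rest of the macrophage-low group. Skeletal muscle genes were high in macrophage-high lymphomas 11 (4.02) and 14 (4.19), where Acta1 was 5.10 and 5.33, and no other lymphoma exceeded 0.63. Lymphomas 11 and 16 had the most similar arrays of the 18, with a correlation over genes of 0.84, although the muscle mean of lymphoma 16 was -0.88. A correlation over genes is a description, since genes are not independent.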
